A study of Homo sapiens with 3 samples.

Results

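The cytosolic ribosomal protein genes were examined in Hep-G2, an established human hepatoma cell line, in which FTO had been targeted by RNA interference. FTO encodes an RNA demethylase that removes the methyl group of N6-methyladenosine. The members were the rows of the deposited gene table whose symbol names a large (RPL) or small (RPS) subunit protein, together with RPLP0, RPLP1, RPLP2 and RPSA, and whose mean over the 3 libraries was at least 10 FPKM (fragments per kilobase of transcript, divided by library size). Of 21572 rows, 87 matched the names, 2 of them on chromosome Y were left out, 7 lay under the minimum, and 78 were kept, 47 of the large and 31 of the small subunit. The members were thus chosen by name and by their measured level, so their abundance is a description and not a finding.

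The study held 3 libraries, 1 for each line. The control line carried the shRNA SHC002, named a scramble by the series design. The line sh#2 carried the shRNA TRCN0000255402 and the line sh#7 the shRNA TRCN0000246247, both directed at FTO, and the design states that knockdown was more efficient in sh#7. All 3 cultures were at passage 21 and all carried a hairpin. Values for 1 gene are given in the order control, sh#2, sh#7 throughout. FTO stood at 9.02, 5.29 and 2.55 FPKM. With 1 library per line, no difference given here has a replicate check, no test was made, and an effect of FTO cannot be told apart from an effect of the line or the culture. Of 8 hepatocyte markers all were present. Their summed level was 17882, 14270 and 7559 FPKM, and ALB, which encodes albumin, went from 5468 and 5501 FPKM in control and sh#2 to 1947 FPKM in sh#7. Of 20 markers of fibroblasts, endothelial cells, leukocytes and erythroid cells, 10 were listed at 0 in every library, and their sums per type reached at most 52.7 FPKM. The part of the hepatocyte markers in the results below was not tested.

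Ribosomal proteins clothe the RNA core of the ribosome, the small subunit decoding the message and the large subunit joining amino acids. Their messenger RNAs are among the most abundant of a growing cell, and their proteins are made in matched amounts and degraded when left over. Most of these messages begin with a C followed by a run of pyrimidines, the 5′ terminal oligopyrimidine (TOP) tract, through which mTOR and LARP1 control their translation and stability.

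The start sites of 13 members, picked by hand, are shown first. Other members as far from the control or as high in level were left out. Among these, RPL27 and RPL32 have a promoter entry without the tract at the annotated start. The sets below therefore do not show how the tract goes with level or difference. The TOP tract was found at the annotated start of 41 of the 64 members with a promoter entry. It played no part in the selection of the members by name and level. Each sequence runs 5′ to 3′ on the gene's strand and holds 24 bases before the annotated start and 16 bases from it. The sequences are from RefSeq on GRCh38.p14, whereas the authors' processing used hg19. Capitals mark the unbroken run of C and T that begins at the start, where its first base is C and at least 5 bases long. The first set holds genes with such a run: RPS3A (chr4:151099604-151099643, plus strand), RPS25 (chr11:119018328-119018367, minus strand), RPL38 (chr17:74203654-74203693, plus strand), RPS23 (chr5:82278339-82278378, minus strand), RPL37A (chr2:216498820-216498859, plus strand), RPS3 (chr11:75399494-75399533, plus strand), RPS27 (chr1:153990738-153990777, plus strand) and RPL39 (chrX:119791615-119791654, minus strand). The run of RPL39 goes on past the printed bases and is 19 bases long.
RPS3A: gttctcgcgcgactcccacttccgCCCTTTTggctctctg
RPS25: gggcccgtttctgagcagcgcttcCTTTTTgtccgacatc
RPL38: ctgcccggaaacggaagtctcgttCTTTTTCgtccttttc
RPS23: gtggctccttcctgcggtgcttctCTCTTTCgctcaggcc
RPL37A: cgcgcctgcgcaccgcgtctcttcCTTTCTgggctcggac
RPS3: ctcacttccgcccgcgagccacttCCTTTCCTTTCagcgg
RPS27: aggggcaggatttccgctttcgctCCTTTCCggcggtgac
RPL39: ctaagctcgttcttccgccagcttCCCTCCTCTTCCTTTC

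The second set holds genes without the run at the annotated start: RPS27A (chr2:55231879-55231918, plus strand), RPS29 (chr14:49598695-49598734, minus strand), RPL26L1 (chr5:172958705-172958744, plus strand), RPS27L (chr15:63157462-63157501, minus strand) and RPL7L1 (chr6:42879592-42879631, plus strand). The annotated start of RefSeq is 1 position per gene, so the start used in these cells may be another.
RPS27A: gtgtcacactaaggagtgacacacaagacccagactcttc
RPS29: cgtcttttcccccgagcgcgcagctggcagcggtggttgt
RPL26L1: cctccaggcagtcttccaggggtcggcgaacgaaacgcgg
RPS27L: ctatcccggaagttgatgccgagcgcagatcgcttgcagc
RPL7L1: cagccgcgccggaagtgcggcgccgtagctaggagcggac

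The members were abundant in all 3 libraries. Their share of the table's FPKM was 17.5%, 16.9% and 16.1%, or 98976, 93686 and 85535 FPKM in sum. The control was highest and sh#7 lowest, and the total over all genes had the same order (564286, 555833 and 530448 FPKM). The large subunit accounted for 9.94%, 9.51% and 9.31% of all FPKM, and the small subunit for 7.60%, 7.34% and 6.81%. The ratio of the large to the small subunit sum was 1.31, 1.30 and 1.37.

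Levels differed over more than 2 orders of magnitude among proteins that, with few exceptions, enter the ribosome in equal number. In the control the members ranged from 25.6 to 5980 FPKM with a median of 855 FPKM; the medians in sh#2 and sh#7 were 914 and 779 FPKM. Of the members, 74 had a mean of at least 100 FPKM, among 945 such genes in the table, and 35 had a mean of at least 1000 FPKM, among 75 such genes. The 10 highest members held 37.5%, 36.0% and 37.0% of the members' FPKM. The rank order hardly moved between libraries: across the 78 genes, which share a library and a method of read assignment, Spearman's rho was 0.990 between control and sh#2, 0.991 between control and sh#7 and 0.994 between sh#2 and sh#7.

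The 5 highest members were lower in both FTO lines than in the control. RPL37A, a zinc-binding protein of the large subunit, stood at 5980, 5302 and 5285 FPKM. RPL38, a small large-subunit protein known for its role in the translation of Hox messages, stood at 4929, 4187 and 3619 FPKM. RPL27 stood at 4174, 3884 and 4008 FPKM, with the smallest gap among the 5 between sh#7 and the control. RPS3, which lines the messenger entry channel of the small subunit and also acts in DNA repair, stood at 3987, 3409 and 3220 FPKM. RPS18, a protein of the small subunit head, stood at 3626, 3456 and 2813 FPKM.

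The lowest members sit far from the rest. RPL13 stood at 107, 117 and 112 FPKM and RPL27A at 59.0, 68.2 and 56.0 FPKM. The members just inside the minimum were RPL39 (mean 32.6 FPKM), RPL7L1 (33.3 FPKM) and RPL26L1 (35.1 FPKM). The row just outside it was RPL22L1, the paralog of RPL22, at 6.15, 6.18 and 4.44 FPKM (mean 5.59 FPKM). RPL3L, the muscle paralog of RPL3, lay at 0.0646, 0.0791 and 0.0490 FPKM, and RPL39L, the testis paralog of RPL39, at 0.0861 FPKM under the control hairpin with 0 listed for sh#2 and sh#7. RPL21 lay at 0.0228, 0.0304 and 0.0244 FPKM, and RPL10L was listed at 0 in all 3 libraries.

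**Figure D1:**
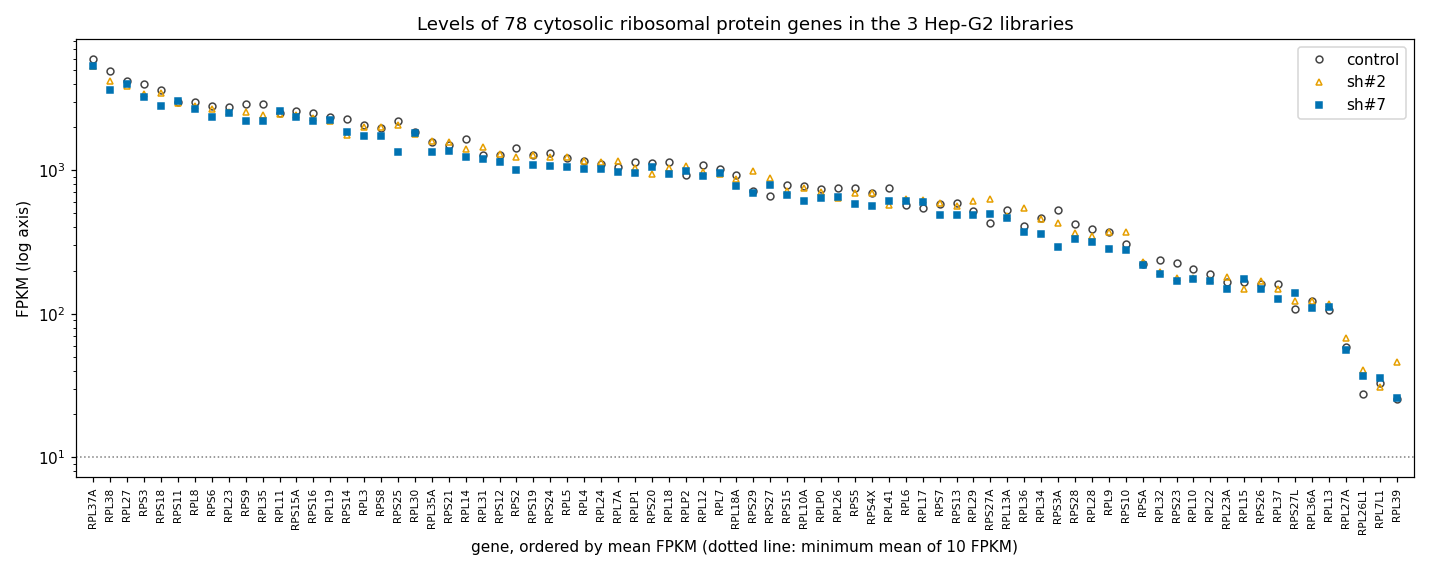
Level of each of the 78 ribosomal protein genes (FPKM, log axis) in the control, sh#2 and sh#7 libraries, 1 point per library, ordered by mean level. Levels run from 25.6 to 5980 FPKM in the control and the 3 points of a gene lie close together beside that range.

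Some low values may depend on how reads were assigned, which was not tested. The pseudogene row RPL13AP5 stood at 3708, 3113 and 3180 FPKM, whereas its parent RPL13A stood at 526, 476 and 464 FPKM; the 2 transcripts are 99.5% identical, with 3 differences over 612 nt. In the same way RPL21P28 stood at 421, 404 and 427 FPKM while its parent RPL21 was near 0, and those transcripts differ at 3 positions over 483 nt. Of the members, 75 have at least 1 annotated pseudogene in GENCODE 29, with a median of 9.5 and a maximum of 91 for RPL23A. The levels of such genes are uncertain as absolute values, since reads of near-identical copies could be split or set aside; the part of this in the differences was not tested. The read-through row RPL36A-HNRNPH2, at 27.6, 28.1 and 23.3 FPKM, overlaps RPL36A, at 122, 123 and 109 FPKM.

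Differences between libraries were taken on the log2(FPKM + 1) scale. The median over the 11069 compared genes, those with a mean of at least 1 FPKM, was 0.16 for sh#7 against the control, 0.10 for sh#2 against the control and 0.05 for sh#7 against sh#2. A relative difference is the difference of a gene minus this median. In sh#7 the members were low as a body: 65 of the 78 were lower than the control in FPKM as deposited (background 32.8% of all compared genes and 50.1% of genes of at least 100 FPKM), and 74 lay below the all-gene median (background 50% and 67.5%). Their median relative difference was -0.34, with quartiles of -0.45 and -0.24 and a range from -1.02 to 0.24. In FPKM as deposited the median difference was -0.18.

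In FPKM as deposited, none of the 78 differed by 2-fold on the log2(FPKM + 1) scale from the control in sh#7, where 2.48% of compared genes were lower and 2.35% were higher by that fold. RPS3A, at -0.86 as deposited, passed 2-fold on the relative scale, at -1.02, and with median-of-ratios scaling of the columns it was the 1 member lower by 2-fold. A smaller shift was counted where the relative difference reached 0.32 log2 units, which is 25% higher or 20% lower. By that measure 44 members were lower and 0 higher, against a background of 19.8% lower and 15.6% higher over all compared genes, and of 31.7% lower and 9.52% higher among genes of at least 100 FPKM. With the difference left in FPKM as deposited, 15 were lower and 2 higher by 0.32 log2 units. The counts were also 15 and 2 when the median of genes of at least 100 FPKM was subtracted instead. That median was -0.002, so the 2 ways are nearly the same calculation. No background share was taken for either, so these counts cannot be set against other genes. The SD among the members was 0.20 log2 units, beside 0.51 over all compared genes, 0.22 over mitochondrial ribosomal protein genes and 0.23 over proteasome genes. In sh#2 it was 0.22, beside 0.32, 0.18 and 0.15.

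In sh#2 the members lay closer to the control. Of the 78, 48 were lower in FPKM as deposited (background 32.8%, and 41.7% among genes of at least 100 FPKM) and 61 lay below the all-gene median (background 50% and 58.6%). The median relative difference was -0.18, with quartiles of -0.25 and -0.06 and a range from -0.49 to 0.73. As deposited, none reached 2-fold in either direction (background 0.723% lower and 0.506% higher). By 0.32 log2 units relative to the median, 10 were lower and 4 higher, close to the background of 11.7% lower and 7.66% higher (14.2% and 5.71% among genes of at least 100 FPKM). The 4 were RPL39, RPS27A, RPL26L1 and RPS29. The balance depended on the centring: 3 were lower and 6 higher in FPKM as deposited, and 4 were lower and 6 higher when the median of genes of at least 100 FPKM was subtracted. No background share was taken for these other centrings.

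Between the 2 FTO lines, 65 members were lower in sh#7 than in sh#2 as deposited (background 42.7%, and 58.5% among genes of at least 100 FPKM) and 70 lay below the all-gene median (background 50% and 65.1%). The median relative difference was -0.22. As deposited, none reached 2-fold (background 1.52% lower and 1.45% higher), and 17 were lower and 0 higher by 0.32 log2 units (background 14% lower and 12.8% higher, and 18.8% and 7.72% among genes of at least 100 FPKM). The comparisons of sh#7 and sh#2 with the control share the control library, so their values are given side by side and no overlap is read from them.

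**Figure D2:**
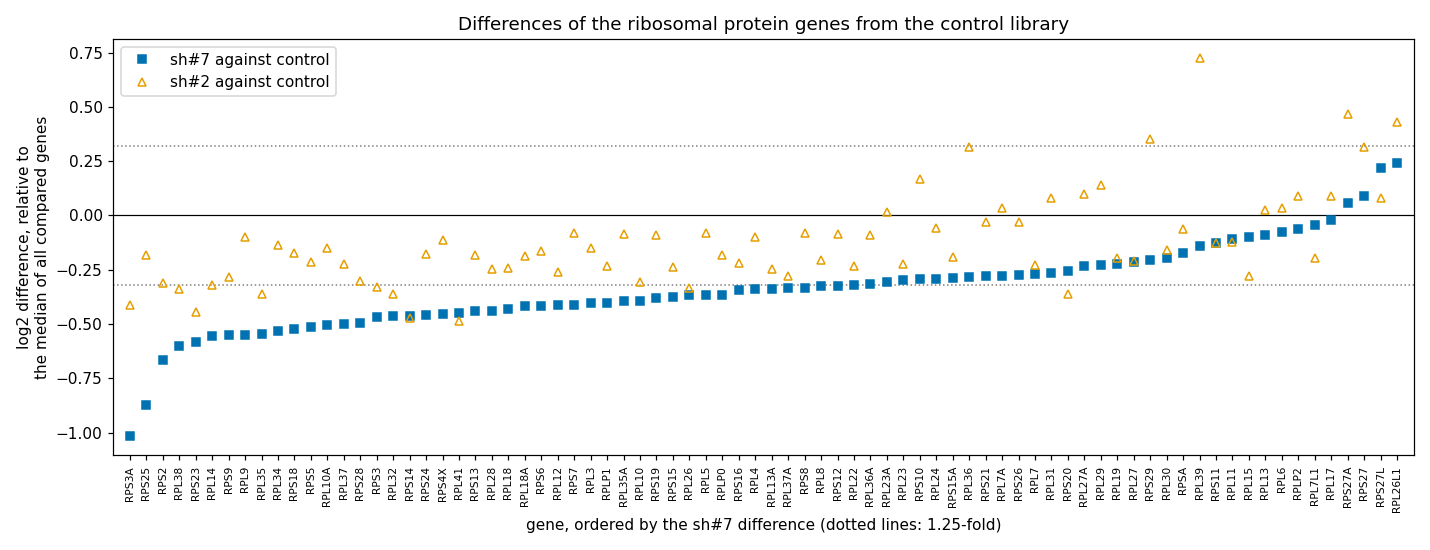
Relative log2 difference of each ribosomal protein gene in sh#7 and in sh#2 against the control, 1 point per gene and line, with the zero line at the median of the compared genes and dotted lines at 0.32 log2 units to each side. The quartiles of the sh#7 points are -0.45 and -0.24, and RPL39 in sh#2 stands highest at 0.73.

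The size of the shift varied with the level of expression. Among genes of 100 to 1000 FPKM, 39 members had a median relative difference of -0.37 in sh#7 and 831 other genes one of -0.13; in sh#2 the values were -0.15 and -0.03. Among genes of at least 1000 FPKM the order was the other way, with -0.34 for 35 members and -0.43 for 40 other genes in sh#7, and -0.18 and -0.23 in sh#2. At that level the quartiles in sh#7 were -0.46 and -0.28 for the members and -0.83 and -0.13 for the others, so the ribosomal protein genes were the more uniform group and not the lower one. The 4 members between 10 and 100 FPKM had medians of -0.09 in sh#7 and 0.27 in sh#2.

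**Figure D3:**
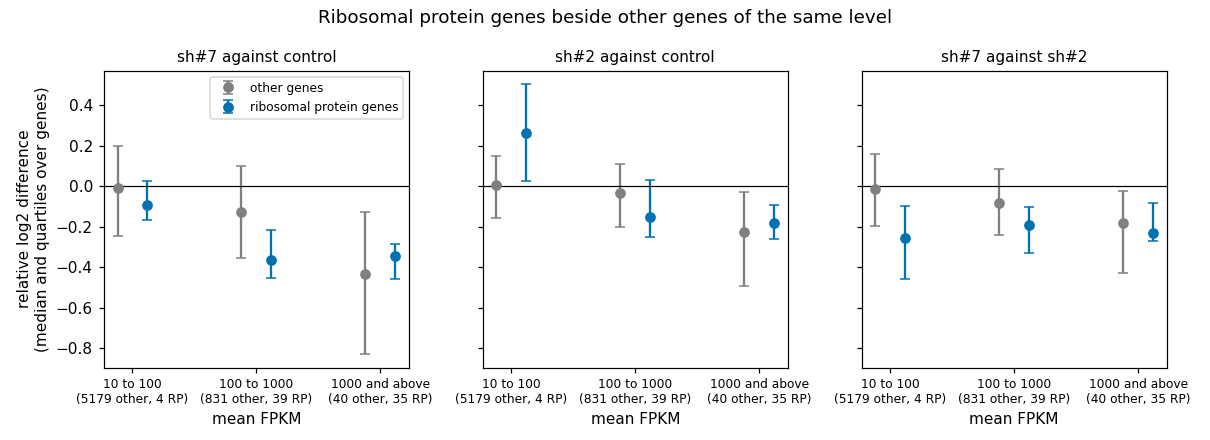
Relative log2 difference against the control for ribosomal protein genes and for other genes in classes of mean level (FPKM); points are medians and bars run from the lower to the upper quartile. At 1000 FPKM and above, the members (-0.34 in sh#7) overlap the other genes (-0.43).

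Both subunits were low in sh#7. The median relative difference of the 47 large subunit genes was -0.32 in sh#7 and -0.18 in sh#2, and that of the 31 small subunit genes was -0.38 and -0.17. By 0.32 log2 units, 24 large and 20 small subunit genes were lower in sh#7 (background 19.8%, and 31.7% among genes of at least 100 FPKM). In sh#2 there were 5 of each, near the background of 11.7% and 14.2%.

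The member farthest below the control in sh#7 was RPS3A, a small subunit protein near the messenger exit. It stood at 527, 426 and 290 FPKM, so each FTO line was lower and sh#7 was lowest. Its level in sh#7 was 55.1% of the control (exact Clopper-Pearson 95% interval 53.5 to 56.7, counting error only) and in sh#2 80.8% (78.7 to 82.9), and its relative log2 difference was -1.02 in sh#7. RPS25, a head protein needed for initiation on some viral internal entry sites, stood at 2196, 2082 and 1337 FPKM. Here sh#2 lay near the control and sh#7 stood apart, at 60.9% of the control (60.2 to 61.6) against 94.8% (93.8 to 95.8) in sh#2.

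RPS2 stood at 1427, 1238 and 1003 FPKM, and RPS23, a protein of the decoding centre, at 226, 179 and 168 FPKM. In RPS2 the level stepped down from control to sh#2 to sh#7, whereas in RPS23 the 2 FTO lines were close. RPL38 completed the 5 lowest in sh#7, with 73.4% of the control (72.6 to 74.3). All 5 genes except RPS2, which had no entry in the promoter table, begin with a TOP run in the sequences printed above. Such a run was present in 41 of the 64 members with a promoter entry, so these few genes do not show how it goes with the difference. In sh#7 the lowest relative log2 difference was -1.02 among the 41 members with the run. It was -0.55, that of RPL9, among the 23 without it at the annotated start.

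The members farthest below the control in sh#2 were RPL41, RPS14, RPS23, RPS3A and RPL32. RPL41, which encodes the shortest ribosomal protein, stood at 752, 576 and 614 FPKM. RPS14, a small subunit gene in the 5q deletion of myelodysplasia, stood at 2279, 1765 and 1844 FPKM. RPL32 stood at 235, 197 and 190 FPKM. For RPL41 and RPS14 the level in sh#2 was 76.6% (74.7 to 78.5) and 77.4% (76.4 to 78.4) of the control and slightly under that in sh#7, unlike most members.

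The members farthest above the control in sh#2 were RPL39, RPS27A, RPL26L1, RPS29 and RPL36, and 17 of the 78 lay above the all-gene median there. RPL39, a very short protein of the polypeptide exit tunnel, stood at 25.6, 46.3 and 25.9 FPKM, so sh#2 alone was high. Its level in sh#2 was 181% of the control (160 to 204), and it rests on the fewest fragments of any member, an estimated 424 in the control. RPS27A, a small subunit protein made as a fusion to ubiquitin, stood at 427, 634 and 495 FPKM, with sh#2 at 149% of the control (145 to 152). RPS29, a zinc-binding head protein, stood at 715, 981 and 691 FPKM, and RPL36 at 408, 546 and 373 FPKM. In these last 2 the control and sh#7 were close and sh#2 was higher, at 137% (133 to 141) and 134% (130 to 138) of the control.

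The members farthest above the others in sh#7 included 2 paralogs of core proteins. RPL26L1, the paralog of RPL26, stood at 27.7, 40.6 and 36.9 FPKM, higher in both FTO lines. RPS27L, a p53-responsive paralog of RPS27, stood at 107, 122 and 140 FPKM, with sh#7 at 130% of the control (123 to 137). RPS27 itself stood at 662, 885 and 786 FPKM and RPL17, an exit tunnel protein, at 543, 620 and 597 FPKM; both were higher in each FTO line than in the control in FPKM as deposited, with relative log2 differences in sh#7 of 0.09 and -0.02. Together with RPS27A these were the 5 farthest above in sh#7.

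Between the FTO lines the largest gaps below sh#2 were those of RPL39, RPS25, RPS3A, RPL36 and RPS29. The members farthest above sh#2 were RPL15, RPL7L1, RPS27L, RPS20 and RPL41. RPL15 stood at 167, 148 and 174 FPKM and RPL7L1, a nucleolar paralog of RPL7, at 33.0, 30.9 and 35.8 FPKM, so sh#2 was lowest in both. RPS20, a head protein, stood at 1131, 947 and 1056 FPKM, again lowest in sh#2.

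The members with known roles outside the ribosome or at defined sites of it were described by role. RPL5 and RPL11 form the 5S ribonucleoprotein, which binds MDM2 when ribosome assembly fails; RPL5 stood at 1224, 1243 and 1059 FPKM and RPL11 at 2489, 2460 and 2576 FPKM. RPL11 was within 4% of the control in both lines, and its relative log2 difference in sh#7 was -0.11 beside -0.37 for RPL5. RPL23, which also binds MDM2, stood at 2758, 2541 and 2501 FPKM, and RPL26, which binds the p53 message, at 754, 643 and 652 FPKM.

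The stalk that recruits elongation factors was not uniform. RPLP0, its base, stood at 740, 701 and 641 FPKM, RPLP1 at 1139, 1041 and 962 FPKM, and RPL12 at 1083, 970.5 and 907 FPKM. RPLP2, the partner of RPLP1, was the exception at 933, 1065 and 995 FPKM, above the control in both FTO lines in FPKM as deposited. The relative log2 difference in sh#7 was -0.06 for RPLP2 and between -0.37 and -0.41 for the other 3.

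RPS6, the substrate of the S6 kinases, stood at 2794, 2683 and 2338 FPKM, and RPS19, the gene most often mutated in Diamond-Blackfan anaemia, at 1271, 1284 and 1090 FPKM. Both were lowest in sh#7. RPSA, known also as a laminin receptor, stood at 222, 228 and 220 FPKM and hardly moved. RPL13A, an inhibitor of translation in the interferon response when released, lay at the 526, 476 and 464 FPKM given above. RPL10, which joins the large subunit late, stood at 206, 179 and 175 FPKM, RPL22 at 188, 172 and 168 FPKM, and RPS4X, a small subunit protein encoded on chromosome X, at 693, 689 and 563 FPKM. Of the 18 genes on this list of roles the median relative difference was -0.37 in sh#7 and -0.23 in sh#2.

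The members were also grouped by position in the ribosome and by disease. The 13 measured proteins of the small subunit head had a median of -0.38 in sh#7 and -0.18 in sh#2, with 9 lower by 0.32 log2 units in sh#7. The 8 exit tunnel proteins had medians of -0.28 and -0.04, with 3 lower in sh#7; as deposited their median in sh#2 was 0.06. Of 17 measured genes mutated in Diamond-Blackfan anaemia, 9 were lower by 0.32 log2 units in sh#7, with a median of -0.37, beside -0.09 in sh#2, or 0.01 as deposited. The background for these calls in sh#7 was 19.8% of compared genes and 31.7% of genes of at least 100 FPKM. FAU, a ribosomal protein made as a fusion to a ubiquitin-like protein, stood at 586, 653 and 604 FPKM and was highest in sh#2, as was RPS27A.

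Across the 78 members, the relative difference in sh#7 had a Spearman correlation of -0.21 with mean level, -0.01 with transcript length and 0.10 with the number of annotated pseudogenes; in sh#2 the values were -0.25, 0.08 and 0.19. These describe genes that share libraries and are not tests.

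RefSeq promoter entries were matched for 64 of the 78 members. A TOP start, with C at the first base and C or T at the next 4 on the gene's strand, was present in 41 of the 64, or 64.1%, beside 4.04% of all 27305 promoters of the table and 5.85% of those of compared genes. The ETS-family core CCGGAAG on either strand within the 300 base window was present in 23 (35.9%, beside 10.7% of all promoters and 20.4% of those of compared genes), and its reverse complement can overlap a TOP run. TATAAA was present in 5 (7.81%, beside 11.95% and 4.93%) and the E-box CACGTG in 4 (6.25%, beside 7.43% and 10.6%). A pyrimidine run led by C and at least 5 bases long began within 10 bases of the start in 54 of the 64 (84.4%, beside 33.3% and 33.7%). Members counted as without a TOP start thus include some with such a run nearby, and the split rests on the annotated position. Among members of at least 100 FPKM, the 39 with a TOP start had a median relative difference of -0.39 in sh#7 and -0.18 in sh#2. The 21 without it at the annotated start had -0.27 and -0.11. Other genes of that level gave -0.23 in sh#7 for 59 with the start and -0.10 for 593 without it. Members with the start also had the higher median level, 1048 FPKM beside 587 FPKM, and the part of level in the gap was not tested.

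The rest of the translation system was read by the same measure. List medians here are relative to the all-gene median, and the medians of the FPKM as deposited are higher by 0.16 in sh#7 and 0.10 in sh#2. In sh#7 the 23 measured non-ribosomal TOP messages had a median relative difference of -0.31, with 9 lower and 0 higher by 0.32 log2 units, and in sh#2 -0.13 with 2 lower and 0 higher. The background was 19.8% lower and 15.6% higher in sh#7 and 11.7% lower and 7.66% higher in sh#2. Among genes of at least 100 FPKM it was 31.7% lower and 9.52% higher in sh#7, and 14.2% lower and 5.71% higher in sh#2. The median level of these TOP messages was 396 FPKM. Of them EEF1A1, which carries aminoacyl-tRNA to the ribosome, stood at 1619, 1422 and 1089 FPKM. HNRNPA1, a splicing regulator, stood at 999, 812 and 797 FPKM, and EEF2, the translocase, at 929, 822 and 683 FPKM. The 8 measured snoRNA host RNAs, several of which are TOP transcripts, gave -0.41 and -0.12, with GAS5 at 124, 109 and 104 FPKM. The list of 10 elongation factors gave -0.24 and -0.06, turning to 0.05 as deposited in sh#2. It includes the mitochondrial factors TUFM and TSFM, and EEF1E1, a protein of the synthetase complex. In sh#7 these 3 lay at -0.20, -0.04 and -0.09. By 0.32 log2 units, 4 of the 10 were lower and 1 higher in sh#7. The 35 initiation factors gave -0.16 and 0.03, or -0.01 and 0.13 as deposited.

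Most ribosome biogenesis factors lay above the all-gene median, 46 of 62 in sh#7 and 58 of 62 in sh#2. They lay at a median of 0.22 in sh#7 and 0.25 in sh#2. By 0.32 log2 units, 23 were higher and 4 lower in sh#7, and 22 higher and 0 lower in sh#2. The background was 15.6% higher and 19.8% lower in sh#7, and 7.66% higher and 11.7% lower in sh#2. RRS1, a factor of large subunit assembly, stood at 22.2, 34.9 and 39.5 FPKM, URB2 at 2.39, 3.83 and 4.96 FPKM, and UTP20, a factor of small subunit processing, at 4.13, 6.21 and 7.76 FPKM. The RNA polymerase I system, which makes ribosomal RNA, had medians of 0.08 and 0.13 over 21 genes and went both ways. In sh#7, 8 genes of this system were higher and 6 lower by 0.32 log2 units, beside the same background of 15.6% and 19.8%. POLR1A, its largest subunit, stood at 14.4, 21.6 and 27.7 FPKM. POLR1D, a smaller subunit chosen after its values were seen, stood at 121, 112 and 87.3 FPKM. The 76 mitochondrial ribosomal protein genes gave -0.08 and 0.13 (0.08 and 0.23 as deposited). The 37 proteasome genes gave -0.02 and 0.11 (0.14 and 0.22 as deposited). Against the control, neither group lay as low in sh#7 as the cytosolic ribosomal protein genes. For sh#7 against sh#2 the mitochondrial ribosomal protein genes lay about as low, at -0.20 beside -0.22 for the cytosolic ones. The proteasome genes lay at -0.14 there. These lists sit at lower levels than the cytosolic ribosomal protein genes, whose median level was 827 FPKM. It was 46.5 FPKM for biogenesis factors, 32.6 FPKM for the RNA polymerase I system, 55.4 FPKM for mitochondrial ribosomal protein genes and 114 FPKM for proteasome genes. The difference between these lists, and the part of level in it, was not tested.

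**Figure D4:**
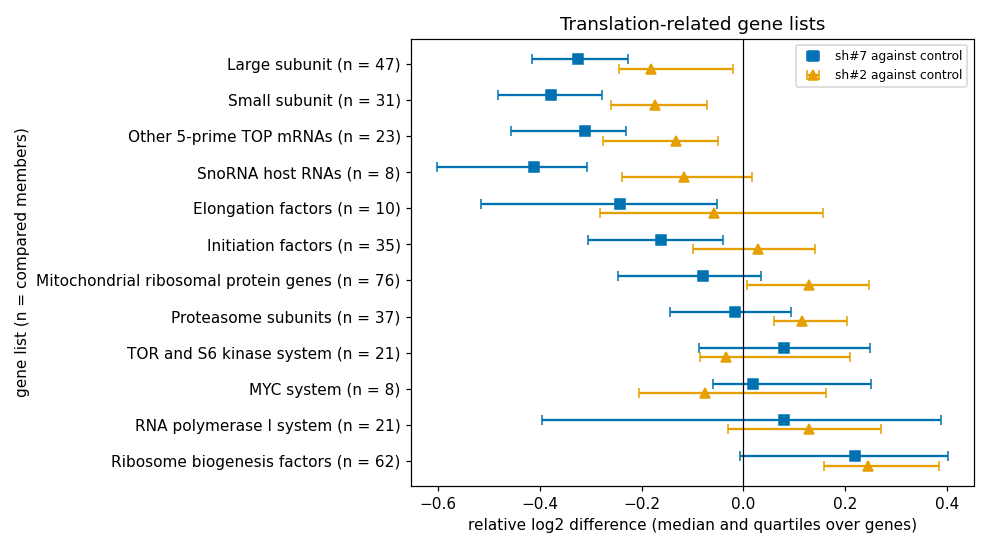
Median relative log2 difference against the control in sh#7 and sh#2 for the large and small subunit genes and the other gene lists, 1 point per list and line with bars from the lower to the upper quartile. The large subunit genes lie at -0.32 and -0.18 and the small subunit genes at -0.38 and -0.17. The non-ribosomal TOP messages lie at -0.31 and -0.13, and the ribosome biogenesis factors at 0.22 and 0.25.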

How the data were processed

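RNA was sequenced in 3 Hep-G2 libraries, 1 per line. The authors deposited FPKM per gene symbol. STAR 2.4.0j, HTSeq, Cufflinks 2.2.1 and build hg19 are named per the submitters' processing notes; their roles, and the treatment of reads that match several genes, are not given in the sources used here. Calendar dates replace 26 symbols. Some rows are not reported here. No count model was applied to FPKM, and with 1 library per group no p-value was computed. Differences are of log2(FPKM + 1), which understates the change of low genes, relative to the median of genes averaging 1 FPKM or more. Calls describe sizes of 2-fold or of 0.32 log2 units. Depth, estimated from low values and GENCODE 29 lengths, was near 41.35, 41.85 and 41.8 mega-fragments for control, sh#2 and sh#7; intervals are exact 95% intervals on estimated fragments, for counting error only. The members, lists and the rule for named genes were chosen with earlier results of these data known. The rule took FTO, the 5 members farthest below and above in each comparison, the 5 highest and lowest in level, genes by role or paralogy, rows next to the minimum, and the 3 genes of every other list with the largest mean difference. Python 3.11.15, pandas 2.3.3, numpy 2.4.6 and scipy 1.17.1 were used, and the calculations were tested on simulated data. Another pseudocount, filter, centring, scaling, denominator and choice of members were tried. In bulk RNA, fewer cells of a type and less RNA per cell cannot be told apart.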

Additional observations from a re-analysis of the deposited data

How the results depend on the processing

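No median of the ribosomal protein genes changed sign under any alternative. Of the summary values, 174 stayed and 36 moved. A count stayed when within 1.5 times its reported value. A median or share stayed when it moved by less than the counting interval reaches to 1 side, for a median that of the member nearest to it. The construction of the centring sets most of these: with no centring the median relative difference was -0.18 in sh#7 and -0.071 in sh#2, with no filter on compared genes -0.18 and -0.071, and with centring on genes of at least 100 FPKM, added after the data were seen, -0.18 in sh#7, -0.12 in sh#2 and -0.12 for sh#7 against sh#2. The number lower by 0.32 log2 units was then 15 in sh#7 in all 3 cases, with 2 higher. In sh#7 the median subtracted was near 0 in each, at -0.002 for the abundant genes, so these are nearly 1 calculation and not separate checks. In sh#2 the number lower was 3 with no centring, 3 with no filter and 4 with the centring on abundant genes, with 6 higher in each. For sh#7 against sh#2 it was 9, 9 and 7. No background share was taken for these counts. The mean of the members in sh#2 was -0.12, and with no minimum for the members the median was -0.16. Median-of-ratios scaling gave -0.19 in sh#2, with or without centring, and -0.37 in sh#7 without centring; under both, 1 member, RPS3A, was lower by 2-fold in sh#7. With members of at least 100 FPKM, 2 were higher by 0.32 log2 units in sh#2. The share of FPKM over genes of at least 1 FPKM was 17.6%, 16.9% and 16.2% (control, sh#2, sh#7). With pseudogene rows it was 18.3%, 17.5% and 16.8%, and without the 100 highest other genes 23.1%, 21.5% and 19.98%. Median-of-ratios scaling shifted the all-gene median by -0.16 in sh#7 and -0.10 in sh#2, and upper-quartile scaling by -0.10 and -0.09. Scaling without centring, the share with pseudogene rows, and leaving out short members or those with many pseudogenes were also added after the data were seen. Of values for single named genes, 682 stayed and 242 moved, 165 of them with no centring. No paired analysis was possible because the lines have a single library apiece, and for the same reason no library could be left out. Counting error limits single genes little, with intervals that reach a median of 1.94% of the ratio to each side, but the spread between cultures is unknown.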

Other observations

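Regulators of ribosomal protein output were read from the same libraries and given as values. LARP1, which binds TOP messages, stood at 38.0, 48.2 and 58.0 FPKM (control, sh#2, sh#7). PDCD4, an S6 kinase target, stood at 18.5, 18.1 and 14.1 FPKM, and SESN1, an upstream inhibitor of mTOR, at 10.7, 16.4 and 13.5 FPKM. Over the 21 measured genes of the TOR and S6 kinase list, 3 were lower and 1 higher by 0.32 log2 units relative to the median in sh#7, and 0 and 2 in sh#2. The background was 19.8% lower and 15.6% higher in sh#7 and 11.7% and 7.66% in sh#2. Of the 8 measured genes of the MYC network, MXI1, an antagonist of MYC, stood at 10.99, 5.77 and 6 FPKM, and MAX, its dimer partner, at 62.5, 81.4 and 91.0 FPKM. EEF1A2, the tissue-restricted form of EEF1A1, stood at 0.990, 0.602 and 6.41 FPKM.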
